A study of Mus musculus with 6 samples.

Results

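Chemokines and their receptors were examined in RNA-seq libraries of mouse Sertoli cells, the somatic cells that line the seminiferous tubules and nurse the germ cells. A gene was taken as a member when it was annotated as protein coding and its name began as a CC, CXC, CX3C or XC chemokine ligand or receptor, as an atypical chemokine receptor, or was Ccrl2. 1 ligand was left out by that rule. The rule found 47 of the 28262 listed genes, made up of 27 ligands (17 of the CC class and 10 of the CXC, CX3C or XC classes) and 20 receptors (15 signalling and 5 atypical).

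There were 6 libraries, 3 from Pa1F/F and 3 from Amh-pa1-/- Sertoli cells of C57BL/6 mice at 20 days of age. The Pa1F/F cells carried floxed Pa1 alleles and served as the control, while the Amh-pa1-/- cells carried the same alleles and expressed Cre recombinase from the promoter of Amh, which is active in Sertoli cells. Cells of both groups were purified from testes, cultured at 34 °C with no treatment and lysed for total RNA. Pa1 itself was not analysed here. The methods call the libraries biological replicates without saying whether each came from its own animals, so the p-values measure the spread between these libraries.

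Chemokines are small secreted or membrane-anchored proteins that guide cells along a gradient. They bind receptors that span the membrane and signal through inhibitory G proteins, and atypical receptors bind the same ligands without that signal and so take them up or retain them. Inflammatory chemokines are induced by cytokines, microbial products and interferons, and homeostatic chemokines are made without such a stimulus. In the testis, Sertoli, Leydig and peritubular cells can all make chemokines, and the resident macrophages of the interstitium carry many of the receptors.

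Between 13203757 and 16231443 reads per library were assigned to genes. Values below are normalized counts, that is reads scaled to the mean effective library size, unless another scale is named. On that scale 3 counts, the limit that a count of 0 allows, come to between 2.72 and 3.38. Among the members Pa1F/F replicate 2 stood apart from the other libraries, while over all genes Amh-pa1-/- replicate 3 lay further from its group, as given below. In Pa1F/F replicate 2, 10 of the 47 members were at least 5-fold above both other control libraries (values under that limit set to it), against 143 of all listed genes (0.506%; 0.63% of the genes tested), and no member was at least 5-fold below both. It was the highest of the 6 libraries for 8 of the 18 members tested below, where 19.8% of all tested genes were highest there. Members whose call or direction changed with the library are therefore given with and without it. Sertoli cell markers did not separate that library, with a summed level of 19921, 19750 and 19604 CPM (reads scaled to an equal library total) in the control libraries and 13765, 13894 and 16472 CPM in the knockout libraries. The highest of them was Clu, which encodes the secreted chaperone clusterin and made up most of that sum. Clu had 194105, 193511 and 192489 normalized counts in the control and 105693, 107472 and 146325 in the knockout libraries. Over the 17 of these markers that were tested, the median log2 fold change was -0.004. None of the 19 markers was at least 5-fold above both other controls in Pa1F/F replicate 2 (0 genes).

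A gene was called when its Benjamini-Hochberg adjusted p was under 0.05 and its log2 fold change was at least 1 in size, in edgeR's quasi-likelihood test over 14919 genes with enough counts. Of the 47 members, 18 were tested. In Amh-pa1-/- cells 5 of these 18 were lower, namely the ligands Cxcl14 and Ccl28 and the signalling receptors Ccr1, Cxcr4 and Cxcr6, where 6.56% of all tested genes were called lower. No member was called higher, where 5.44% of all tested genes were, and none was higher at an unadjusted p under 0.05. DESeq2's test called none higher either, but gave no adjusted p for 4 of the 18, Cxcl1, Ccl2, Cxcl10 and Ccl7. At the adjusted p alone 6 members passed, Cx3cl1 being the sixth, where 35.3% of all tested genes did. Ccl28, Ccr1 and Cxcr6 passed the filter on low counts through the control libraries, so the count of 5 is a description and not support. Without Pa1F/F replicate 2, Cxcl14, Ccl28, Ccr1 and Cxcr4 were still called lower (4 of 18, all tested genes 5.84%), while Cxcl1 and Ccl2 were called higher (2 of 18, all tested genes 5.29%). Over the tested members the median of the log2 fold changes was -1.07 with all libraries and -0.29 without that library, and over all 14919 and 15155 tested genes it was 0.00 and 0.01.

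The knockout libraries lay wholly below the control libraries for 8 of the 18 tested members and wholly above for none. Over all tested genes these shares were 26.1% and 26.3%, so that the groups of 52.4% did not overlap. The 8 were the 5 called genes together with Cx3cl1, Cxcl16 and Ccl25.

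**Figure D1:**
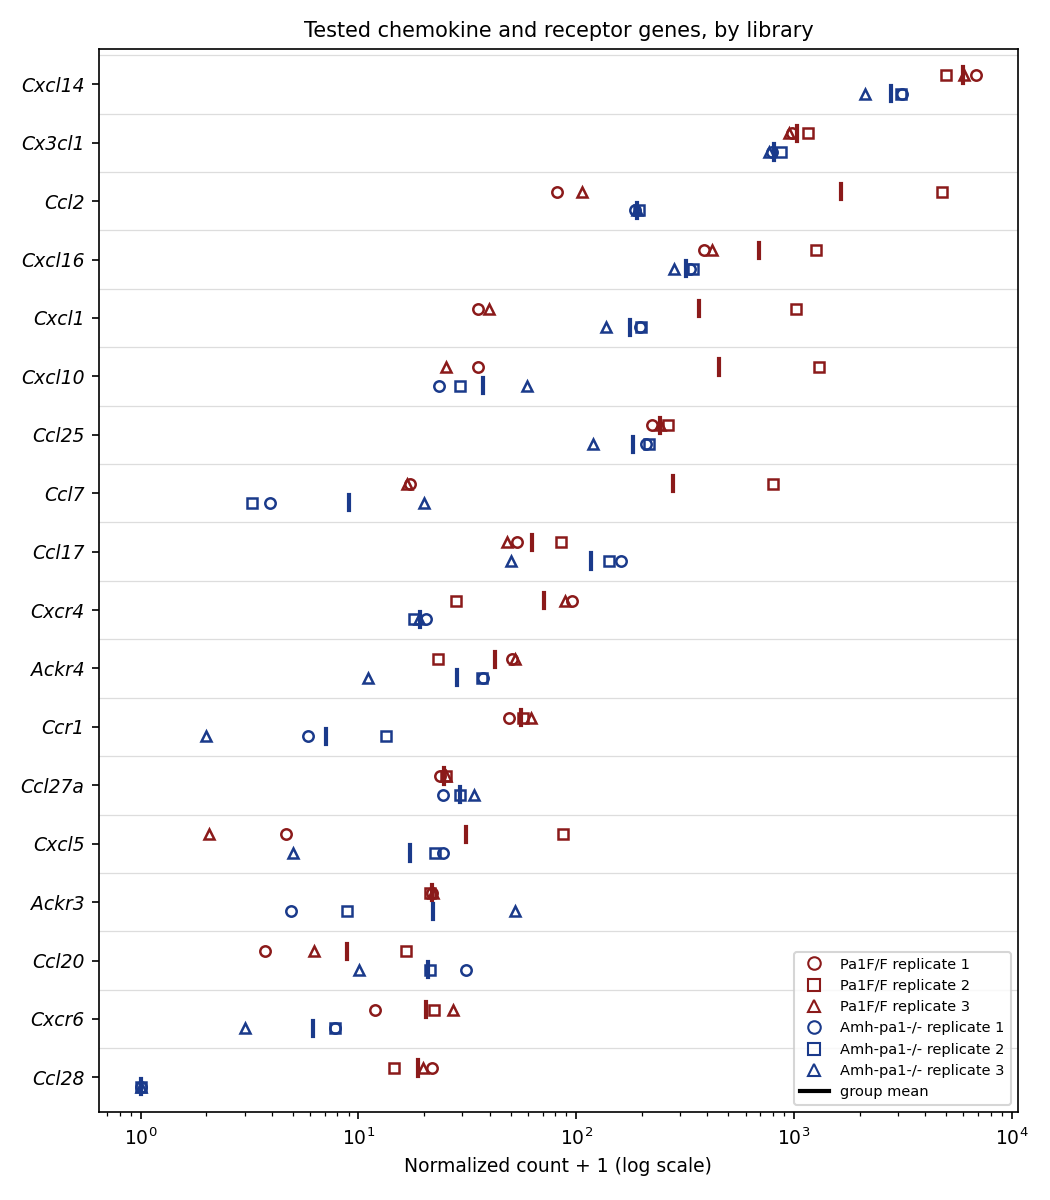
Normalized count plus 1 on a log axis for the 18 tested chemokine and receptor genes, with 1 symbol per library (circle, square and triangle for replicates 1, 2 and 3), control Pa1F/F in red, Amh-pa1-/- in blue and group means as vertical bars. The red squares of Ccl2, Cxcl1, Cxcl10, Ccl7 and Cxcl5 stand far to the right of every other symbol in their rows, while the blue symbols of Cxcl14, Ccr1, Cxcr4, Cxcr6 and Ccl28 all lie to the left of the red ones.

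Cxcl14 was the most abundant member. This conserved CXC chemokine is made by many epithelia without an inflammatory stimulus. Its normalized counts were 6858, 5001 and 6003 in the Pa1F/F libraries and 3118, 3088 and 2118 in the Amh-pa1-/- libraries. The groups did not overlap, and the lowest control library was replicate 2. The mean was 5954 ± 929 (SD, n = 3) in the control and 2775 ± 569 (SD, n = 3) in the knockout, 2.15-fold lower, with a log2 fold change of -1.10 ± 0.18 (SE, edgeR adjusted p = 0.00421). Without Pa1F/F replicate 2 the log2 fold change was -1.21 ± 0.18 (edgeR adjusted p = 0.0064). Without Pa1F/F replicate 1 it was -0.98 and without Amh-pa1-/- replicate 3 it was -0.94, both short of the fold threshold, and with the closest replicates summed the edgeR adjusted p was 0.0588. In CPM per kilobase of exon its level was 118 ± 18.4 in control and 55.1 ± 11.3 in knockout cells (SD, n = 3), above that of every other member in each group mean. Cxcl14 gave 78.5%, 30.3% and 75.8% of all reads of the 27 ligands in the control libraries and 61.1%, 59.9% and 55.8% in the knockout libraries.

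Ccl28, a ligand of Ccr3 and Ccr10 that mucosal epithelia secrete, was found in the control libraries alone. Its normalized counts were 20.8, 13.6 and 18.9 in Pa1F/F cells and 0 in each of the 3 Amh-pa1-/- libraries. The control mean of 17.8 ± 3.77 (SD, n = 3) was at least 5.72-fold higher than the floor of 3 counts per knockout library, and the edgeR adjusted p was 0.00309. Ccl28 was called under each of the 13 settings tried, with a highest edgeR, limma or DESeq2 adjusted p of 0.0394. The counts were low, between 14 and 23 reads in a control library.

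Both genes lie on chromosome 13, Cxcl14 at chr13:56288643-56296551 on the minus strand and Ccl28 at chr13:119623819-119654359 on the plus strand (GRCm38). Their promoters are shown because these were the ligands called lower. Each is the stretch of 250 bases before the RefSeq start in GRCm38.p6, from 5′ to 3′ on the strand of the gene, at chr13:56296552-56296801 (minus) for Cxcl14 and chr13:119623569-119623818 (plus) for Ccl28. Both strands were searched for 3 motifs, the NF-κB consensus by its name, the interferon-stimulated response element (GAAA and again GAAA 2 bases on), and the AP-1 site TGANTCA, and capitals mark every match, overlapping ones included.
Cxcl14: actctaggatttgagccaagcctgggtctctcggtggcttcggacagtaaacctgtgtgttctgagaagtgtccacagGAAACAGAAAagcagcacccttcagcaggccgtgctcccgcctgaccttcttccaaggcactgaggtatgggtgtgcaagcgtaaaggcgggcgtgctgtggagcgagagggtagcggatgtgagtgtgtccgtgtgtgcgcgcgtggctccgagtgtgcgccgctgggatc
Ccl28: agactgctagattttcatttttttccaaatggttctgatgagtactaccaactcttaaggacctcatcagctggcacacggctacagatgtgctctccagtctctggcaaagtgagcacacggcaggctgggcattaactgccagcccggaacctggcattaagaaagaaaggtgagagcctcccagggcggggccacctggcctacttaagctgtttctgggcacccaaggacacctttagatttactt
The Cxcl14 window held 1 interferon-stimulated response element, GAAACAGAAA, which began 172 bases before the start, and the Ccl28 window held none of the 3 motifs. Of all 32851 promoter windows of this length, 2.98% held the response element, 7.25% the NF-κB consensus and 6.75% the AP-1 site. A match is a run of letters and not a site of binding.

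The ligands Cx3cl1, Ccl25 and Ccl27a were tested and not called. Cx3cl1, the membrane-anchored fractalkine, had 982, 1158 and 951 normalized counts in the control and 789, 871 and 771 in the knockout libraries. Its groups did not overlap, but the difference was small, with a log2 fold change of -0.35 ± 0.10 (SE, edgeR adjusted p = 0.0295), below the fold threshold. Without Pa1F/F replicate 2 its edgeR adjusted p was 0.0549. Ccl25, the ligand that draws T cell precursors to the thymus, had 222, 263 and 240.2 normalized counts in control and 208, 215 and 118 in knockout libraries. Only Amh-pa1-/- replicate 3 was clearly lower, and the log2 fold change was -0.42 ± 0.23 (SE, edgeR adjusted p = 0.191). Ccl27a, a ligand of Ccr10 known from skin, lay between 22.7 and 33.1 in all 6 libraries. Ccl25 and Ccl27a overlap Elavl1 and Il11ra1 on the opposite strand, and Ccl27a also has near-identical copies, so reads of these genes cannot be told apart with certainty.

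Cxcl16 is a membrane-anchored chemokine that binds Cxcr6. It had 385, 1258 and 417 normalized counts in Pa1F/F libraries and 333, 342 and 282 in Amh-pa1-/- libraries. The control libraries were all higher, replicate 2 by far the most. The log2 fold change was -1.11 ± 0.46 with all libraries (SE, edgeR adjusted p = 0.103) and -0.33 ± 0.12 without that library (edgeR adjusted p = 0.0833). Cxcl16 overlaps Zmynd15 on the opposite strand.

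The CC ligands Ccl17 and Ccl20 draw T cells and dendritic cells through Ccr4 and Ccr6. Ccl17 had 52.6, 84.2 and 47.2 normalized counts in control libraries and 159, 141 and 49.1 in knockout libraries. Replicates 1 and 2 of the knockout were above every control library and replicate 3 was among them. The log2 fold change was 0.92 ± 0.45 (SE, edgeR adjusted p = 0.156) and came to 1.29 without Amh-pa1-/- replicate 3 (edgeR adjusted p = 0.0062). Ccl20 had at most 30.3 normalized counts in any library, and its log2 fold change of 1.34 ± 0.68 did not pass the test with all libraries (SE, edgeR adjusted p = 0.167) or without Pa1F/F replicate 2 (2.31 ± 0.69, edgeR adjusted p = 0.0538). Without that library it was called higher when no filter on low counts was used (edgeR adjusted p = 0.0148) and by DESeq2's test (DESeq2 adjusted p = 0.0374).

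The 10 members that were at least 5-fold higher in Pa1F/F replicate 2 than in both other control libraries were the ligands Ccl2, Ccl3, Ccl5, Ccl7, Cxcl1, Cxcl2, Cxcl3, Cxcl5 and Cxcl10 and the atypical receptor Ccrl2. Of these, 5 lie on chromosome 5, where the CXC ligands cluster, and 4 on chromosome 11, where the CC ligands cluster. The summed level of the 9 ligands was 11.7, 584 and 13.98 CPM in the control libraries and 29.8, 30.5 and 28.1 CPM in the knockout libraries. The other 18 ligands summed to 582, 537 and 525 CPM in the control and 317, 320 and 230 CPM in the knockout, most of it Cxcl14. Some of them, Cxcl16, Ccl8, Ccl9 and Ccl20 included, were also highest among the control libraries in replicate 2 without reaching 5-fold over both others by this measure (Ccl8 had 1, 7 and 1 reads). Of the 10 members, 5 had enough counts for the test.

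**Figure D2:**
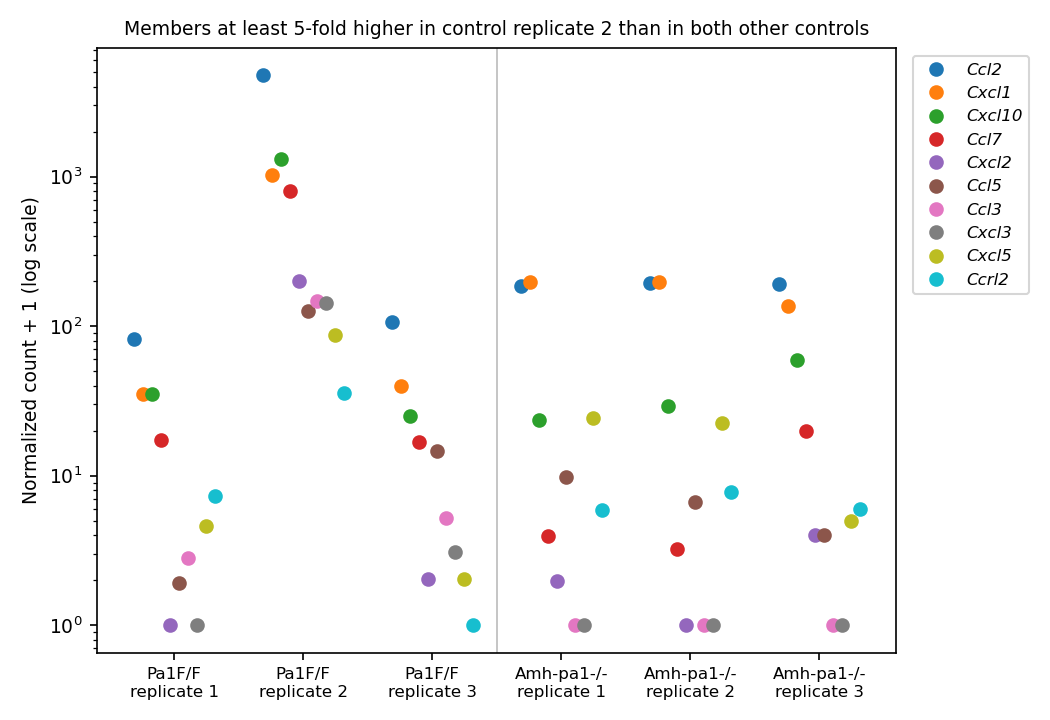
Normalized count plus 1 on a log axis in each of the 6 libraries for the 10 members at least 5-fold higher in Pa1F/F replicate 2 than in both other control libraries, with 1 colour per gene and points set slightly apart. In replicate 2 Ccl2 reached 4763 and Ccrl2, the lowest of the 10, reached 34.9, while Ccl2 and Cxcl1 in the knockout libraries lay between control replicate 2 and the other controls.

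Ccl2 and Ccl7 attract monocytes through Ccr2 and lie next to each other at chr11:82035571-82037453 and chr11:82045712-82047525 (GRCm38, plus strand). Ccl2 had 80.6, 4763 and 105 normalized counts in the control and 184, 194 and 189 in the knockout. The knockout libraries were alike and stood above control replicates 1 and 3 but far below replicate 2. Its log2 fold change was -3.12 ± 1.498 with all libraries (SE, edgeR adjusted p = 0.149) and 1.03 ± 0.16 without replicate 2 (edgeR adjusted p = 0.00743), a reversed direction. Ccl7 had 16.3, 802 and 15.7 normalized counts in the control and 2.93, 2.25 and 19.0 in the knockout libraries. It thus did not follow Ccl2 in the knockout, where replicate 3 was the highest and the others were at or under the floor. Its log2 fold change was -5.06 ± 1.85 with all libraries (SE, edgeR adjusted p = 0.0744) and -0.96 ± 0.83 without replicate 2 (edgeR adjusted p = 0.425).

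Cxcl1, Cxcl2, Cxcl3 and Cxcl5 attract neutrophils and lie in 1 cluster on chromosome 5, from Cxcl5 at chr5:90759360-90761624 to Cxcl2 at chr5:90903871-90905938. Cxcl1 had 34.4, 1019 and 38.8 normalized counts in the Pa1F/F libraries and 195, 197 and 136 in the Amh-pa1-/- libraries. As with Ccl2, the knockout libraries lay above control replicates 1 and 3 and below replicate 2. The log2 fold change was -1.05 ± 1.19 with all libraries (SE, edgeR adjusted p = 0.532) and 2.26 ± 0.24 without replicate 2 (edgeR adjusted p = 0.00243), which is 4.81-fold higher. Cxcl5 had 3.62, 86.2 and 1.05 normalized counts in the control and 23.4, 21.4 and 4.01 in the knockout, and its log2 fold change was -0.90 ± 1.295 with all libraries (SE, edgeR adjusted p = 0.625) and 2.68 ± 0.97 without replicate 2 (edgeR adjusted p = 0.0888). Cxcl2 and Cxcl3 were seen almost only in control replicate 2, with 206 and 146 reads there and at most 3 reads in any other library.

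Cxcl10, an interferon-induced ligand that draws activated T cells, lies farther along chromosome 5 at chr5:92346638-92348889 on the minus strand. It had 34.4, 1301 and 24.1 normalized counts in Pa1F/F libraries and 22.5, 28.2 and 58.1 in Amh-pa1-/- libraries. Apart from control replicate 2 the groups overlapped. Cxcl10 had a log2 fold change of -3.64 ± 1.55 with all libraries (SE, edgeR adjusted p = 0.112) and 0.30 ± 0.47 without replicate 2 (edgeR adjusted p = 0.666). Cxcl10 overlaps Art3 on the opposite strand.

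**Figure D3:**
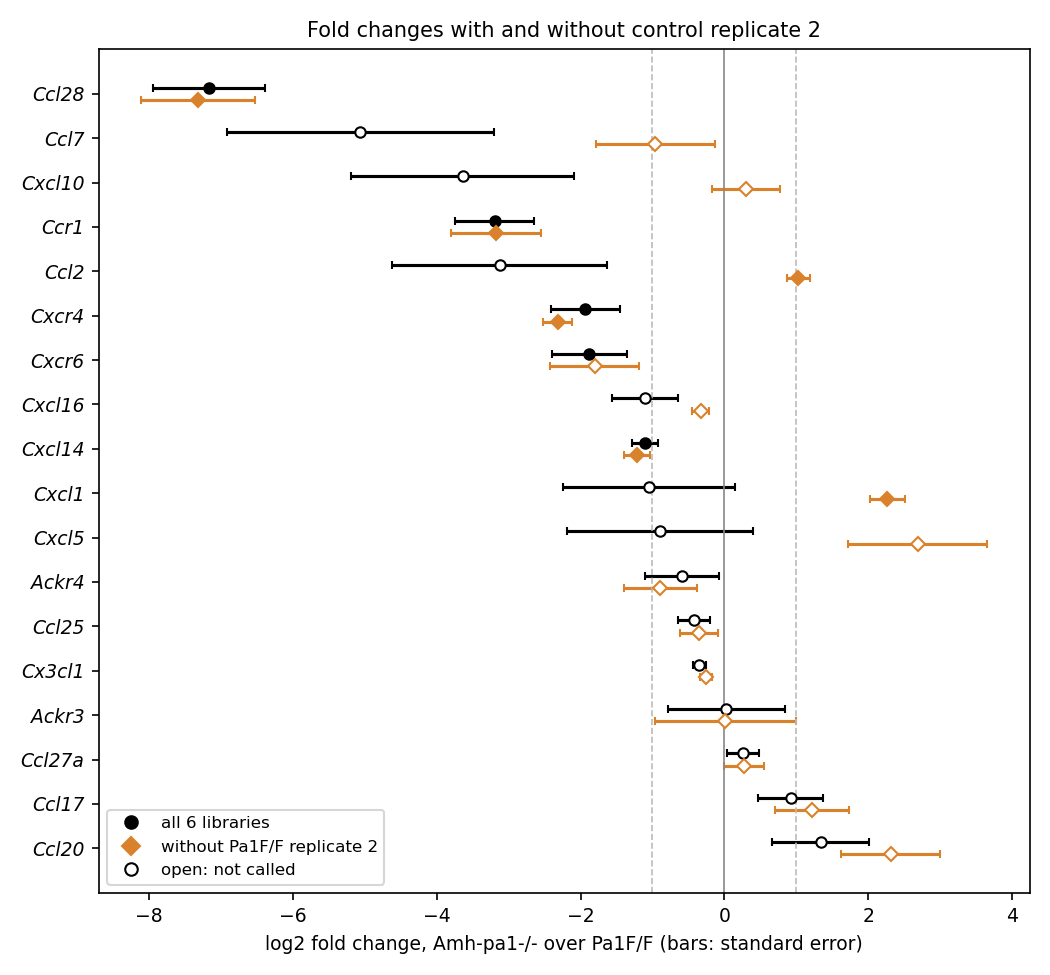
Log2 fold change of Amh-pa1-/- over Pa1F/F for the 18 tested members with all 6 libraries (black circles) and without Pa1F/F replicate 2 (orange diamonds), with bars for the standard error, filled symbols for called genes and dashed lines at -1 and 1. Cxcl5, Cxcl1, Cxcl10 and Ccl2 lie left of 0 with all libraries and right of 0 without that library, while Cxcl14, Ccr1, Cxcr4 and Ccl28 are filled on the left in both.

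Promoters of the chromosome 5 ligands above are shown, other than that of Cxcl5, for which none was at hand. They were chosen because these genes were high together in 1 control library and 1 of them rose in the knockout without it. Each is again the 250 bases before the RefSeq start in GRCm38.p6, written from 5′ to 3′ on the gene's strand with the same motifs in capitals. They lie at chr5:90890995-90891244 (plus) for Cxcl1, chr5:90903649-90903898 (plus) for Cxcl2, chr5:90785851-90786100 (plus) for Cxcl3 and chr5:92348890-92349139 (minus) for Cxcl10.
Cxcl1: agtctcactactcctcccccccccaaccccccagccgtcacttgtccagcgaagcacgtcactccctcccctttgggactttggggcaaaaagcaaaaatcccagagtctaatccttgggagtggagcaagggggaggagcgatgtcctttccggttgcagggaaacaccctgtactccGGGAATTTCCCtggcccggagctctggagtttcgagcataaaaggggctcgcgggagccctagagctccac
Cxcl2: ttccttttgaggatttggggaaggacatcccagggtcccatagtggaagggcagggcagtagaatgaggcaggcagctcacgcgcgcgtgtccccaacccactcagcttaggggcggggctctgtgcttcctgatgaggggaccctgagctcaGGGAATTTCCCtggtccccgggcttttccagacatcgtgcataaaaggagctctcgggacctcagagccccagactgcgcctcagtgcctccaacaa
Cxcl3: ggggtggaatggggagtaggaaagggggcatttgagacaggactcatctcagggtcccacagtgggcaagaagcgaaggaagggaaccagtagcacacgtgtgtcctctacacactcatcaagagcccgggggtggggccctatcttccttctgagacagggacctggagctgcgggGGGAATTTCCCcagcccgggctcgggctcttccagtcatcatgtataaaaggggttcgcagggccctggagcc
Cxcl10: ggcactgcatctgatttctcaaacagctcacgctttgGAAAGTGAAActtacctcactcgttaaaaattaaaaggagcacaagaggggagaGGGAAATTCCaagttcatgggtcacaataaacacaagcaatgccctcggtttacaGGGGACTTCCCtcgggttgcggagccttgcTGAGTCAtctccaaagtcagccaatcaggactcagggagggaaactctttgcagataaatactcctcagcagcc
Cxcl1, Cxcl2 and Cxcl3 share the run GGGAATTTCCC, an NF-κB consensus read on either strand, which began 71, 97 and 73 bases before their starts. Cxcl10 held 2 such runs, GGGAAATTCC at 159 and GGGGACTTCCC at 104 bases before the start, besides the interferon-stimulated response element GAAAGTGAAA at 213 and the AP-1 site TGAGTCA at 74 bases. A promoter was at hand for 36 of the 47 members. The NF-κB consensus was in 5 of the 6 members with a promoter among those high in control replicate 2 and in 6 of the 30 others. Counted in the same way, with a gene taken when any of its windows matched, it was in 8.23% of all 27025 genes with a promoter. The response element was in 1 of the 6 and 2 of the 30 (3.46% of all genes), and the AP-1 site in 1 of the 6 and 4 of the 30 (7.82% of all genes). The 6 were picked by their values in control replicate 2, and Cxcl1, Cxcl2 and Cxcl3 are neighbours that share 1 run, so the counts are a description and not support. No promoter was at hand for Ccl2, Ccl5, Ccl7 and Cxcl5. These counts describe letters in the windows, and binding was not measured.

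Of the signalling receptors, 3 of 15 had enough counts for the test, Ccr1 and Cxcr6 through the control libraries. Ccr1, Cxcr4 and Cxcr6 were called lower, where 6.56% of all tested genes were, but since the filter favoured that direction the count is given as a description. Ccr1 is a receptor of monocytes and macrophages that binds Ccl3, Ccl5, Ccl7 and Ccl9, and lies at chr9:123962124-123968692 (minus). It had 48.0, 56.2 and 60.8 normalized counts in the control and 4.88, 12.4 and 1.002 in the knockout libraries. Every knockout library was far below the lowest control, with means of 55.0 ± 6.48 and 6.09 ± 5.79 (SD, n = 3 each), a 9.03-fold difference. The log2 fold change was -3.19 ± 0.55 (SE, edgeR adjusted p = 0.00532) and was nearly the same without Pa1F/F replicate 2 (-3.17 ± 0.63, edgeR adjusted p = 0.0156). It was -4.14 without Amh-pa1-/- replicate 2 (edgeR adjusted p = 0.00513), and the call was lost when the closest replicates of each group were summed (edgeR adjusted p = 0.0575).

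Cxcr4, which guides blood stem cells, leukocytes and primordial germ cells, lies at chr1:128588199-128592293 (minus). It had 94.2, 27.1 and 88.1 normalized counts in control libraries and 19.5, 16.9 and 18.0 in knockout libraries. Here control replicate 2 was the lowest control library and lay close above the knockout. With all libraries the log2 fold change was -1.93 ± 0.48 (SE, edgeR adjusted p = 0.0207) and -2.32 ± 0.21 without replicate 2 (edgeR adjusted p = 0.00147). Cxcr4 lost its call without any 1 of Pa1F/F replicate 1, Pa1F/F replicate 3, Amh-pa1-/- replicate 1 and Amh-pa1-/- replicate 2, where the edgeR adjusted p lay between 0.062 and 0.0731. It was also lost with limma-voom (limma adjusted p = 0.0735) and with the closest replicates summed (edgeR adjusted p = 0.158).

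Cxcr6, the receptor of Cxcl16 on T and natural killer T cells, lies at chr9:123806475-123811760 (plus). It had 10.9, 21.3 and 26.2 normalized counts in the Pa1F/F libraries and 6.83, 6.76 and 2.004 in the Amh-pa1-/- libraries. The groups did not overlap, and the log2 fold change was -1.88 ± 0.53 (SE, edgeR adjusted p = 0.0316). Its call was lost without Pa1F/F replicate 2 (-1.80 ± 0.62, edgeR adjusted p = 0.078), without Pa1F/F replicate 3 and without Amh-pa1-/- replicate 1 or 2, with an edgeR adjusted p of at most 0.104, and likewise with the replicate block (edgeR adjusted p = 0.0855) and the closest replicates summed (edgeR adjusted p = 0.0975). Cxcr6 overlaps Fyco1 on the opposite strand, which had up to 1614 reads in a library against 74 for Cxcr6 in all 6.

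The summed level of the 15 signalling receptors was 12.8, 9.68 and 14.4 CPM in the control and 3.58, 3.91 and 3.13 CPM in the knockout libraries. Most tested macrophage markers were lower in the same libraries. Of 18 macrophage markers 14 were tested, and 11 of these were called lower and none higher, where 6.56% and 5.44% of all tested genes were. Of the 11, 8 passed the filter on low counts through the control libraries, so the count is a description, while Lyz2, Cd68 and Cd14 reached the minimum in every library. The summed level of all 18 was 159, 147 and 147 CPM in the control and 98.0, 99.1 and 84.4 CPM in the knockout, and that of the 17 other than Mrc1 was 92.1, 77.5 and 82.8 against 17.8, 16.5 and 21.1 CPM. No marker was at 0 in every library of either group. Lyz2, the lysozyme of macrophages, had 550.03, 363 and 454 normalized counts in the control and 24.4, 32.7 and 85.2 in the knockout (log2 fold change -3.26 ± 0.44, SE, edgeR adjusted p = 0.00217). Ptprc, the pan-leukocyte marker, had 29, 33 and 21 reads in the control and 5, 4 and 2 in the knockout. The mannose receptor Mrc1, the most abundant of the list, had a log2 fold change of 0.17 (edgeR adjusted p = 0.254). Without Pa1F/F replicate 2, 14 of 15 tested macrophage markers were called lower, where 5.84% of all tested genes were, and low-count markers among them again passed the filter through the control libraries. The part of macrophage markers in the receptor values was not tested, and in RNA of a whole culture fewer cells of a type and less RNA per cell cannot be told apart.

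**Figure D4:**
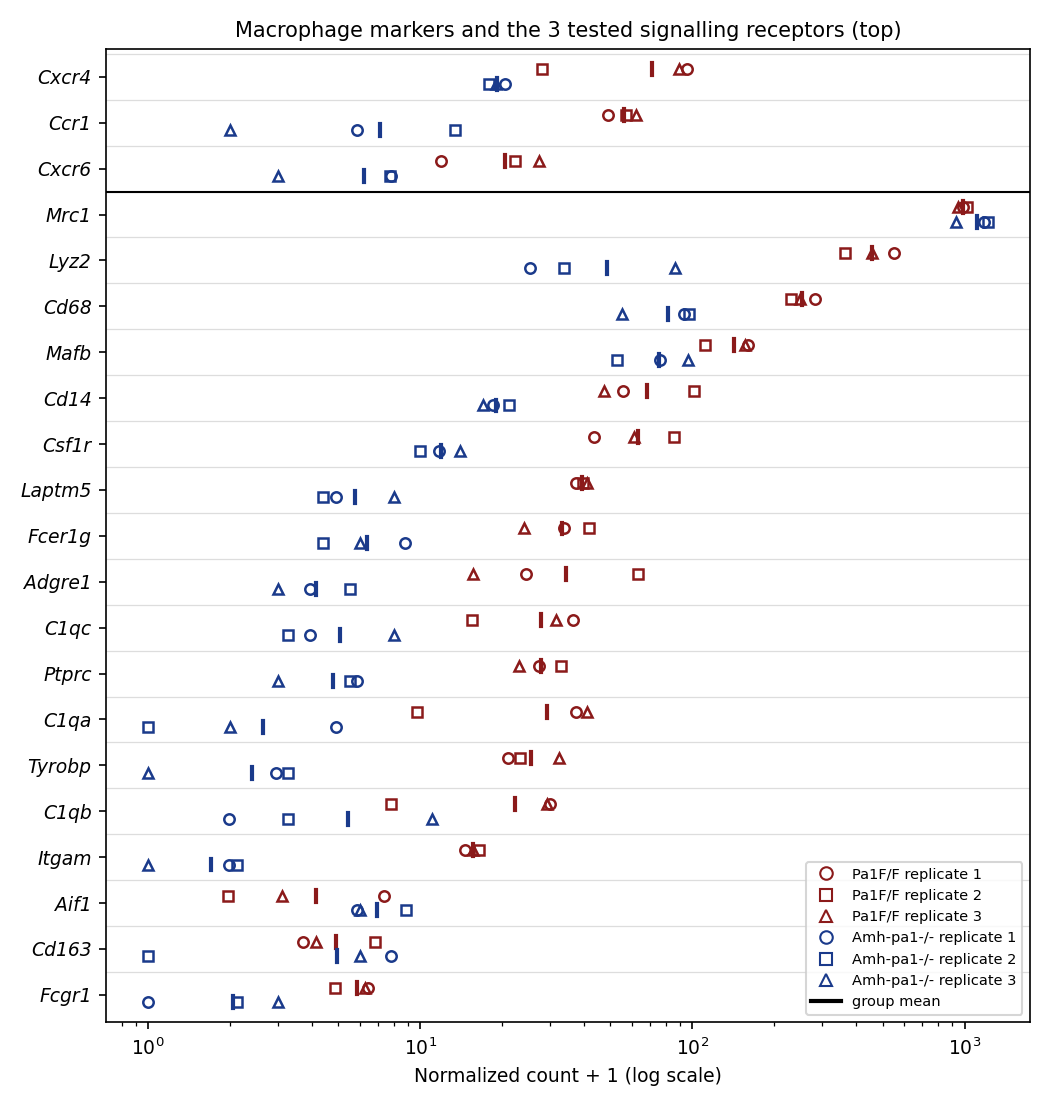
Normalized count plus 1 on a log axis in each library for the 3 tested signalling receptors (top) and the 18 macrophage markers, with control Pa1F/F in red, Amh-pa1-/- in blue and group means as vertical bars. Ccr1 (means 55.0 and 6.09) lies below the control in the knockout as do Lyz2, Cd68, Csf1r and Ptprc, while Mrc1 at the top of the marker list does not separate the groups.

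Markers of other leukocytes were scarce. Of 13 genes that mark T, natural killer or B cells, 6 were listed, with a summed level of 1.85 to 3.03 CPM in the control and 0.750 to 1.69 CPM in the knockout libraries. The only 1 tested was Lck, with a log2 fold change of -0.18 (edgeR adjusted p = 0.80). Of 11 neutrophil and mast cell markers 5 were listed, with 1.51 to 2.14 CPM in the control and 0.383 to 0.664 CPM in the knockout, and S100a8 had 0, 9 and 0 reads in the control and none in the knockout. Kit, the stem cell factor receptor, was the only 1 tested, and it was called lower (-1.92 ± 0.41, SE, edgeR adjusted p = 0.0116), with 26, 14 and 29 reads in the control, through which it passed the filter, and 6, 4 and 7 in the knockout. Kit is also carried by germ cells and Leydig cells.

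The other 12 signalling receptors were not tested. Ccr3 reached 10 reads in Amh-pa1-/- replicate 2, and none of the others had more than 9 reads in any library. Xcr1, the receptor of cross-presenting dendritic cells, was read in every library, with 6, 7 and 7 reads in the control and 4, 1 and 2 in the knockout. Ccr2, the Ccl2 receptor of monocytes, had 6, 3 and 4 reads in the control and 2, 0 and 0 in the knockout. Cx3cr1, the Cx3cl1 receptor, had at most 8 reads in a library. Differences between the groups in these receptors were not detectable at this depth.

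Among the atypical receptors, Ackr3 and Ackr4 were tested and neither was called. Ackr3, a scavenger of CXC ligands, had 20.8, 20.3 and 21.0 normalized counts in the control and 3.90, 7.89 and 51.1 in the knockout libraries. The control libraries were alike, while the knockout libraries lay on both sides of them, with replicate 3 more than 5-fold above the others. Its log2 fold change was 0.03 ± 0.81 with all libraries (SE, edgeR adjusted p = 0.983) and -1.82 without Amh-pa1-/- replicate 3 (edgeR adjusted p = 0.00932). Ackr4, which takes up Ccl25 and other CC ligands, had 49.8, 22.3 and 51.4 normalized counts in the control and 36.1, 36.0 and 10.02 in the knockout, and the groups overlapped (-0.59 ± 0.52, SE, edgeR adjusted p = 0.414). It overlaps Acad11 on the opposite strand. Ccrl2, which binds the chemoattractant chemerin, had 36 reads in control replicate 2 and 7 or fewer in every other library. Ackr1 and Ackr2 had at most 3 reads.

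Of the untested ligands, Ccl9, a mouse ligand of Ccr1, had 19, 58 and 6 reads in control libraries and 2, 1 and 0 in knockout libraries. Ccl3 had 2, 152 and 4 reads in the control and none in the knockout, and Ccl5, which attracts T cells and monocytes, had 1, 129 and 13 against 9, 5 and 3. These ligands failed the filter on low counts because fewer than 3 libraries reached the minimum count. When no such filter was used, Ccl3, Ccl7 and Ccl9 were also called lower, 8 members in all against 3.91% of genes. Without Pa1F/F replicate 2 as well, Ccl9 was still called (log2 fold change -3.37 ± 0.89, SE, edgeR adjusted p = 0.0127), while Ccl3 (edgeR adjusted p = 0.136) and Ccl7 (edgeR adjusted p = 0.432) were not, and 6 members were called lower in all, against 3.76% of genes. In that fit 5 were called higher, Ccl2, Ccl17, Ccl20, Cxcl1 and Cxcl5, against 3.51% of genes. DESeq2's test called Ccl5 and Ccl9 lower besides the 5, where it called 5.7% of its genes lower. Without that library it did not call Ccl5 (DESeq2 adjusted p = 0.908) and called Ccl9 (DESeq2 adjusted p = 0.0454), with 5 members lower in all, against 5.15% of its genes, and Ccl2, Ccl20 and Cxcl1 higher, 3 in all, against 4.98%. The remaining 9 untested ligands, Ccl1, Ccl4, Ccl6, Ccl8, Ccl11, Ccl19, Ccl22, Cxcl9 and Cxcl15, had at most 7 reads in any library. For 14 of the 29 untested members the highest count was in control replicate 2.

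Amh-pa1-/- replicate 3 differed from the other knockout libraries in several members. Ackr3 and Ccl7 were at least 5-fold higher in it than in both others, and Ccl17, Ccl25 and Ackr4 were lowest in it. Without it 20 members were tested. Ccl9, Ccr1, Ackr3, Cxcr4, Cxcr6 and Ccl28 were then called lower, 6 where 7.92% of all tested genes were. All of these but Cxcr4 passed the filter on low counts through the control libraries, so the count is a description and not support. Ccl17 was called higher, where 5.6% of all tested genes were. The difference between 2 libraries over all genes was measured as the chi-square of their counts per degree of freedom. It was 30.5 and 28.4 for Amh-pa1-/- replicate 3 against replicates 1 and 2 of its group, and 1.66 between those. For Pa1F/F replicate 2 it was 20 and 18.3 against replicates 1 and 3 of its group, and 2.22 between those.

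Of 23 tested genes that pass on a chemokine signal, 1 was called higher and 3 lower, where 5.44% and 6.56% of all tested genes were. At the adjusted p alone 9 were higher and 5 lower, where 35.3% of all tested genes passed in either direction. Rgs2, which shortens the signal of G proteins, had 358, 404 and 395 normalized counts in the Pa1F/F libraries and 94.7, 110.4 and 139 in the Amh-pa1-/- libraries (log2 fold change -1.75 ± 0.15, SE, edgeR adjusted p = 0.000496). Its relative Rgs4 had 3.62, 27.1 and 5.24 in the control and 102, 83.4 and 49.1 in the knockout (2.69 ± 0.67, SE, edgeR adjusted p = 0.021, and 4.11 ± 0.49 without Pa1F/F replicate 2, edgeR adjusted p = 0.00349). Rgs2 and Rgs4 thus moved in opposite directions. Pik3r5, a regulatory subunit of the phosphoinositide 3-kinase of leukocytes, had 16, 45 and 21 reads in the control and 2, 0 and 3 in the knockout (-3.87 ± 0.75, SE, edgeR adjusted p = 0.00819). Pik3r5 and Rac2, another of the 3 called lower, passed the filter through the control libraries and Rgs4 through the knockout libraries, which favoured those directions, so these counts are no support. Of 6 tested chemoattractant genes with other names, 1 was called, Mif, a cytokine that binds Cxcr4, which was lower (-1.08 ± 0.14, SE, edgeR adjusted p = 0.00212).

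Among 18 NF-κB factors, inhibitors and targets, 1 was called higher and none lower with all libraries, and 5 were called higher and none lower without Pa1F/F replicate 2. Over all tested genes 5.44% were called higher and 6.56% lower with all libraries, and 5.29% and 5.84% without that library. Nfkbie, an inhibitor of NF-κB that is also its target, had 30.8, 176 and 43.0 normalized counts in the control and 518, 486 and 310 in the knockout libraries. The knockout was above every control library (log2 fold change 2.39 ± 0.62, SE, edgeR adjusted p = 0.0239, and 3.57 ± 0.31 without Pa1F/F replicate 2, edgeR adjusted p = 0.00142). Of 20 tested cytokine and receptor genes that induce chemokines, 2 were called higher and 2 lower, and without that library 4 were called higher and 1 lower, beside the same shares of all tested genes. The interleukin-1 receptor Il1r1 had 424, 368 and 380 normalized counts in the control and 845, 714 and 1179 in the knockout (1.22 ± 0.18, SE, edgeR adjusted p = 0.0033). Tnfrsf1b, a TNF receptor, was lower (-1.55 ± 0.42, SE, edgeR adjusted p = 0.0274), though not past the fold threshold without that library, and Il6ra, the interleukin-6 receptor, was lower with a log2 fold change of -1.41 ± 0.20 (SE, edgeR adjusted p = 0.00278).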

How the data were processed

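Total RNA of Sertoli cells from 3 Pa1F/F and 3 Amh-pa1-/- replicates was sequenced. Per the labels and the submitters' processing notes, the authors aligned reads to GRCm38 with HISAT2 2.1.0 and counted reads per gene with HTSeq 0.6.0, and the deposited counts are whole numbers without normalization. No strand setting is given in the sources used here. The authors' own mean signal, fold change, p-value and adjusted p-value columns were not used.

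Groups and replicate numbers came from the labels. Genes were filtered with filterByExpr (minimum count 10, minimum total count 15), normalized by TMM (factors 0.990 to 1.028) and compared by edgeR's quasi-likelihood F-test (edgeR 4.0.16, R 4.3.3), adjusting p-values by Benjamini-Hochberg over 14919 genes. A standard error is the log2 fold change divided by the square root of F. On simulated counts for this comparison (14853 genes, 200 changed by a log2 fold change of 2), 98% of changed genes were recovered and 4.85% of calls were false. DESeq2 1.42.0 and limma 3.58.1 served as alternatives. Exon lengths were from GENCODE M39 and promoters from RefSeq.

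Called members, and those averaging 50 normalized counts or more, are given per library. From other lists, the plan was to name at most the 3 called genes and the 3 most abundant markers with the highest means. Further genes were named after their values were seen. They were Rac2, Ptprc, S100a8, Des, Msln, Insl3, Cyp17a1, Hsd3b6, Lhcgr, Cldn5, Acrv1 and the markers in the plots. Some items are not reported here. The members and lists were chosen with earlier results of these data known. Floors cover counting error only, since reads without molecular identifiers are not independent molecules.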

Additional observations from a re-analysis of the deposited data

How the results depend on the processing

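The count of all called genes was 1791 and became 538 with a test against the fold threshold (glmTreat), 883 when the closest replicates of each group were summed and 5266 with no fold threshold. Members called lower (5) became 8 with no filter on low counts, 2 with at least 10 counts in every library, 2 with glmTreat, 1 with closest replicates summed, and 3 to 6 when single replicates were left out. In settings added after the data were seen, which also left out Pa1F/F replicate 2, the count was 6 with no filter and 5 with DESeq2's test, and members called higher were 5 and 3. Members called higher (0) became 2 without Pa1F/F replicate 2 (Cxcl1 and Ccl2) and 1 without Amh-pa1-/- replicate 3 (Ccl17), a range of 0 to 2 over single replicates left out. Members past the adjusted p alone (6) became 3 with at least 10 counts in every library, 1 with closest replicates summed, and 3 to 9 when replicates were left out. The median log2 fold change of tested members (-1.07) became -0.81 with limma-voom, -1.56 with no filter, -0.67 with the replicate block, -1.54 with closest replicates summed, and -1.45 to -0.29 when replicates were left out. Directions reversed with limma-voom for Cxcl5 (0.66), Cxcl1 (0.64) and Ackr3 (-0.77), and with the replicate block for Cxcl1 (0.57) and Ackr3 (-0.47). With single replicates left out, the log2 fold change ran from -1.45 to 2.68 for Cxcl5, -1.58 to 2.26 for Cxcl1, -4.19 to 0.30 for Cxcl10, -3.68 to 1.03 for Ccl2 and -1.82 to 0.53 for Ackr3, reversing without Pa1F/F replicate 2 for the first 4 and without Amh-pa1-/- replicate 3 for Ackr3. The cause was not tested. Same-numbered libraries did not deviate together (correlations 0.108, -0.164 and -0.179). Since these are deviations from means of 3 libraries, the check cannot decide whether same-numbered libraries were prepared together. With the replicate block, 1558 genes were called, and 4 members were lower, without Cxcr6. Of 245 values of single members under up to 14 alternatives, 217 kept their direction and side of the threshold, 16 lost and 2 gained a call and 10 reversed. With 3 libraries a group and under 100 reads for many members, small differences were not detectable.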

Other observations

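Markers of other testicular cells also differed between the groups, in a table where 6.56% of all tested genes were called lower and 5.44% higher. Of 3 tested Leydig cell markers, all 3 were called lower. The summed level of the list was 794 to 911 CPM in Pa1F/F cells and 165 to 288 CPM in Amh-pa1-/- cells, and Cyp11a1 and Star made up most of it. The untested Leydig cell markers were scarce in the control too. There Cyp17a1 had 1, 3 and 2 reads, Hsd3b6 had 4, 1 and 2, and Lhcgr had 15, 10 and 6. Insl3 had 2, 1 and 0 reads in the control and none in the knockout. Cyp11a1, which makes pregnenolone from cholesterol, had 4249.9, 4212 and 4695 normalized counts in the control and 352, 364 and 377 in the knockout. Of 5 tested peritubular myoid markers 1 was called higher, smooth muscle actin Acta2, with 3129, 2537 and 3239 normalized counts against 12312, 11886 and 15383. The smooth muscle myosin Myh11 was not called, with 649, 481 and 580 in the control against 216, 164 and 1605 in the knockout, and it was, like Des and Actg2, below the control in knockout replicates 1 and 2 and above it in replicate 3. Of 6 tested mesothelial markers 3 were called higher, Upk3b, Lrrn4 and Krt19. Msln (log2 fold change -0.53, edgeR adjusted p = 0.261) and Krt8 (-0.77, edgeR adjusted p = 0.0965) went the other way and were not called. The summed level of the list other than Wt1, which Sertoli cells also express, was 9.68 to 13.4 CPM in the control and 30.3 to 36.5 CPM in the knockout. With Wt1, which made up most of it, the sum was 348 to 364 CPM and 342 to 447 CPM. Of 4 tested endothelial markers Vwf was called higher and Pecam1 lower, and Cldn5 was nearly absent from both groups, with 1 read in all. Of 2 tested germ cell markers Ddx4 was called lower and Sycp3 was not, and Acrv1 had 1, 2 and 0 reads in the control and none in the knockout. Of 17 tested Sertoli cell markers Cst9 was called higher and Inha lower. Ddx4 passed the filter on low counts through the control libraries, and Vwf, Upk3b and Krt19 through the knockout libraries, which favoured the direction called. The part of these cell types in the chemokine values was not tested.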
